A study of Homo sapiens with 16 samples.

Results

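Replication-dependent histone genes encode the linker histone H1 and the core histones H2A, H2B, H3 and H4 that package newly made DNA. Human protein-coding genes of the GENCODE v44 annotation placed on GRCh37 were taken as members when they were named H1-1 to H1-6, or when their name began with H2AC, H2BC, H3C or H4C followed by a number. This gave 65 genes of 20176: 6 of H1, 16 of H2A, 17 of H2B, 13 of H3 and 13 of H4. Of these, 51 lay in the large cluster on chromosome 6, 12 on chromosome 1, and 2 elsewhere, namely H4C16 on chromosome 12 and H2BC12L on chromosome 21. The chromosome 1 members are no single cluster, since H2AC25 and H2BC26 lie far from the others.

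Histone genes of this class are transcribed mainly in S phase, when the cell needs histones for the DNA it is copying. They gather in the histone locus body, a nuclear compartment built around the coactivator NPAT, and their mRNAs end in a stem-loop in place of a poly(A) tail. Core histones form the nucleosome particle, and H1 binds the DNA that enters and leaves it.

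The study used chromatin immunoprecipitation followed by sequencing (ChIP-Seq) to ask where DNA polymerase κ (Pol κ), a polymerase that copies past damaged bases, lies on the genome of HEK293T cells, a human embryonic kidney line. Of its 16 samples, 3 had a peak list that was analysed here, 1 each for WT, POLK-/- and DDX23-/- cells, all untreated; POLK encodes Pol κ, and DDX23 a spliceosomal RNA helicase. The labels name Polk as the antibody for these samples, while the protocol names an anti-FLAG gel and the labels give these cells no tag. The titles of these samples carry a prefix R_ that the labels do not explain, so what was pulled down is uncertain. The POLK-/- list therefore comes from cells labelled as lacking the protein that the antibody label names.

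Each genotype had 1 list, so no difference between genotypes has a replicate error or a test. Library numbers in the names of the WT and DDX23-/- peaks do not match the numbers of the samples they were deposited with, and the library behind each list is thus uncertain. Whether each knockout was 1 clone is not given in the labels, and a peak list cannot check a knockout. No control list was analysed. The lists held 1468, 2451 and 5945 peaks in WT, POLK-/- and DDX23-/-, and the weakest peak rested on 6, 10 and 14 fragments, so the lists also differ in depth. The number of fragments at each summit was recovered from the deposited fold and p-value of the peak, as a whole number that fits both. The 95% intervals given here are exact and cover counting error only.

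Few histone genes had a peak. Within 1 kb of the gene, a peak was found at 5 of 65 members in WT (7.69%, exact binomial 95% interval 2.54 to 17.0), 7 in POLK-/- (10.8%, 4.44 to 20.9) and 9 in DDX23-/- (13.8%, 6.53 to 24.7). The same share over all protein-coding genes was 7.2% in WT, 12.5% in POLK-/- and 30.1% in DDX23-/-. In WT and POLK-/- the histone share thus lay near the background. In DDX23-/- the background lay above the upper end of the histone interval. Some neighbouring members shared a peak, such as H2BC18 and H3C13 in DDX23-/-. The genes are therefore not independent, the intervals may be too narrow, and the contrast was not tested. Counted around the gene start alone, 4 members (6.15%) had a peak in WT, 4 (6.15%) in POLK-/- and 8 (12.3%, 5.47 to 22.8) in DDX23-/-, beside backgrounds of 5.61%, 10.1% and 24.9%.

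By histone type, the counts were small. Among the linker histone genes, 2 of 6 had a peak in every list, and they were H1-2 and H1-4. H3 genes had no peak in WT or POLK-/- (0 of 13 each, upper limit 24.7%) and 1 of 13 in DDX23-/-. H4 genes had 1 of 13 in each list. Of the 16 H2A genes, 1 had a peak in WT, 2 in POLK-/- and 1 in DDX23-/-. Of the 17 H2B genes, 1, 2 and 4 had a peak in that order. The intervals of all 5 types overlapped widely in each list, from 4.33% to 77.7% for H1, so no order among the types can be read at these numbers of genes. On chromosome 1, no member had a peak in WT or POLK-/- (0 of 12, upper limit 26.5%), and 2 had one in DDX23-/-. Some of these 12 genes have exact copies elsewhere in the genome, where reads may not be placed, as described below. H4C16 and H2BC12L had none in any list.

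**Figure D1:**
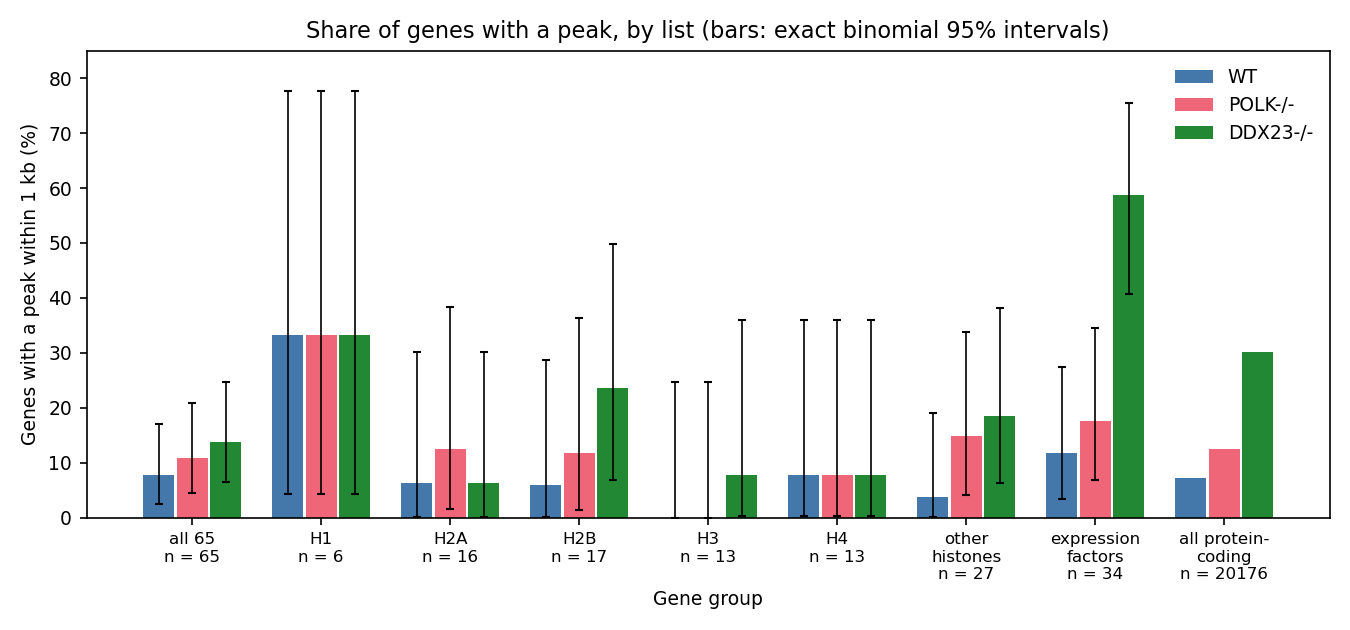
Share of genes with a peak within 1 kb, in percent, for the 65 replication-dependent histone genes, each histone type, 27 other histone genes, 34 factors of histone gene expression and all protein-coding genes; bar colour gives the list and error bars are exact binomial 95% intervals. The DDX23-/- bar is 13.8% for the histone genes and 30.1% for all protein-coding genes.

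In all, 55 of the 65 genes had no peak in any list and 10 had at least 1. Peaks in all 3 lists were found at 5 members, H1-2, H1-4, H2BC5, H4C8 and H2AC15. H2BC18, H3C13 and H2BC15 had a peak in DDX23-/- alone, H2AC6 in POLK-/- alone, and H2BC6 in both knockout lists. Over all protein-coding genes, 5.47% had a peak in all 3 lists, 16.8% in DDX23-/- alone and 69.0% in none. A further 0.565% had one in POLK-/- alone and 6.39% in both knockout lists but not in WT. When each list was reduced to its 1468 strongest peaks by p-value, the members with a peak were the same 5 genes in WT and DDX23-/-, and these 5 plus H2AC6 in POLK-/-. H1-4 stayed among them in both knockout lists through the peak it shares with H2BC5, since the peak at its own start ranked 1612th in POLK-/- and 3260th in DDX23-/-. The share of all protein-coding genes at that equal number was 7.2%, 7.25% and 7.25%. The additional DDX23-/- members were thus among the weaker peaks of a longer list.

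An absent peak means that none was detected at this depth. At the genome-wide background of each list, a peak needed 6 fragments in WT, 10 in POLK-/- and 13 in DDX23-/-, which is 10.5, 8.0 and 6.69 times that background. Enrichment below this was not called at that background.

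The signal at histone genes came from 10 separate places, 5 of them in all 3 lists, and the DNA of those the results turn on is shown first. H1-2 and H1-4 are the linker histone genes with a peak over the start, and H1-3 is shown with them as a linker histone gene that had no peak. H2BC5 has the strongest peak just before its start, and H2BC18 is the chromosome 1 gene with a peak at its start. Sequences are RefSeq promoters, from 250 bases before to 50 after the start, on the strand of the gene (table of GRCh38.p14, found in GRCh37 by exact match). They lie at chr6:26056649-26056948 (minus strand, H1-2), chr6:26156307-26156606 (plus, H1-4), chr6:26235166-26235465 (minus, H1-3), chr6:26158099-26158398 (plus, H2BC5) and chr1:149783876-149784175 (minus, H2BC18). Capitals mark, on either strand, the TATA box TATAAA, the CCAAT box, the H1 element AAACACA and the octamer ATGCAAAT.
H1-2: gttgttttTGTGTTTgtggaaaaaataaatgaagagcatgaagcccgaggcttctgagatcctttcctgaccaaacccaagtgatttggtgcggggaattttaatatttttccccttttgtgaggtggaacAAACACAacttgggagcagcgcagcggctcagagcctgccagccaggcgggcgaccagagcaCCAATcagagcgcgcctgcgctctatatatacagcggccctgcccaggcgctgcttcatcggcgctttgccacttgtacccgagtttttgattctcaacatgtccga
H1-4: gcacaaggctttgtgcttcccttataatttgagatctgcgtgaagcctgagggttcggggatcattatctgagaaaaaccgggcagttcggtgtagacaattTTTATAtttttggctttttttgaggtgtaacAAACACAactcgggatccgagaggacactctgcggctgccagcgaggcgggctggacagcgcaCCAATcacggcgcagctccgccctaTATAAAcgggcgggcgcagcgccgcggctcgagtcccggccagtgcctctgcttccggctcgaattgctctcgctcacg
H1-3: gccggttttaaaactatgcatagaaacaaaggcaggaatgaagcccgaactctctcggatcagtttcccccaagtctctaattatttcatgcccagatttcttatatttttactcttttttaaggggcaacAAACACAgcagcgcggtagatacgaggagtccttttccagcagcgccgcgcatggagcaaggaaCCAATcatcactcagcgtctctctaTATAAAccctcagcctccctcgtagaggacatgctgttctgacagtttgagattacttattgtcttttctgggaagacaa
H2BC5: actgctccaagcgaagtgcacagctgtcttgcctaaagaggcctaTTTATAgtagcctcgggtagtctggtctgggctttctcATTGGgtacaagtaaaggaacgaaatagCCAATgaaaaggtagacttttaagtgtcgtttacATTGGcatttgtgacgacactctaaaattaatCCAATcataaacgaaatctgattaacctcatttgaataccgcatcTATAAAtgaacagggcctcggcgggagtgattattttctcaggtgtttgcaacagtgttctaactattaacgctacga
H2BC18: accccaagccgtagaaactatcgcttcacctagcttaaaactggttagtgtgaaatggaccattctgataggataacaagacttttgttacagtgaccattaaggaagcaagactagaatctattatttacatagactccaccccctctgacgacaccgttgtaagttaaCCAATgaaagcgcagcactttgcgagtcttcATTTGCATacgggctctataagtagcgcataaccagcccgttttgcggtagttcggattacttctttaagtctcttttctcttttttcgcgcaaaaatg

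All 6 linker histone promoters held AAACACA, an element known from H1 genes, against 5.64% of the 35116 promoters in the table. In H1-2 it began 119 bases before the start, with a reversed copy 242 bases before it, in H1-4 117 bases and in H1-3 119 bases before the start. CCAAT followed at 57, 54 and 55 bases before the start. TATAAA lay 29 bases before the start of H1-4 and 30 before that of H1-3, and those letters were not in the window of H1-2. H1-3, with no peak in any list, thus held the same 3 elements as H1-4 at nearly the same places.

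Of the 65 members, 59 matched a promoter in the table. TATAAA was found in 39 (66.1%, against 11.5% of all promoters) and CCAAT in 50 (84.7%, against 34.6%). CCAAT was in every matched H1, H2A, H2B and H3 promoter and in 2 of 11 H4 promoters. The octamer ATGCAAAT, a site for POU factors, was in 24 (40.7%, against 1.77%), of which 11 were among 15 H2A and 12 among 16 H2B promoters. The H2BC5 promoter held 4 CCAAT elements, 2 on each strand, and lacked the octamer letters, whereas that of H2BC18 held the octamer 49 bases and CCAAT 80 bases before the start. These are matches of letters, not measured binding. The median GC content of member promoters was 43.0% (36.3% to 58.0%), against 58.7% over all promoters. Among the linker histone promoters, H1-1 (58.0%), H1-4 (56.0%) and H1-2 (51.7%) lay above H1-5, H1-6 and H1-3 (47.3%, 46.0% and 45.0%).

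The strongest peak near any histone gene lay between H1-4 and H2BC5, which encodes an H2B. Its deposited fold, a ratio over the local background with 1 added to both terms, was 48.3 in WT, 34.5 in POLK-/- and 73.9 in DDX23-/-. It rested on 135 fragments in WT (exact Poisson interval 113 to 160), 186 in POLK-/- (160 to 215) and 254 in DDX23-/- (224 to 287). The summit lay 223, 195 and 208 bases before the annotated start of H2BC5, and 784 bases past the end of H1-4 in WT. By p-value it ranked 46th of 1468 peaks in WT, 146th of 2451 in POLK-/- and 111th of 5945 in DDX23-/-. It thus stood among the top peaks of every list, and in WT the summit fell within the H2BC5 promoter printed above, near its 5′ end.

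H1-2 had a single peak over its start. The fold was 20.2 in WT, 17.9 in POLK-/- and 29.8 in DDX23-/-, from 56 (42.3 to 72.7), 120 (99.5 to 144) and 132 (110 to 157) fragments. The summit lay 24, 54 and 15 bases downstream of the start, close to the first coding base. In POLK-/- the peak covered 100% of the gene, against 62.8% in WT and 66.5% in DDX23-/-.

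H1-4 had a weaker peak over its own start, apart from the one shared with H2BC5. The fold was 11.1 in WT, 4.91 in POLK-/- and 7.15 in DDX23-/-, from 18 (10.7 to 28.5), 32 (21.9 to 45.2) and 31 (21.1 to 44) fragments. The summit lay 40 and 21 bases downstream of the start in WT and POLK-/-, and 21 bases upstream of it in DDX23-/-. The fold was above the list median of 7.68 in WT and below the medians of 7.21 and 7.42 in POLK-/- and DDX23-/-.

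**Figure D2:**
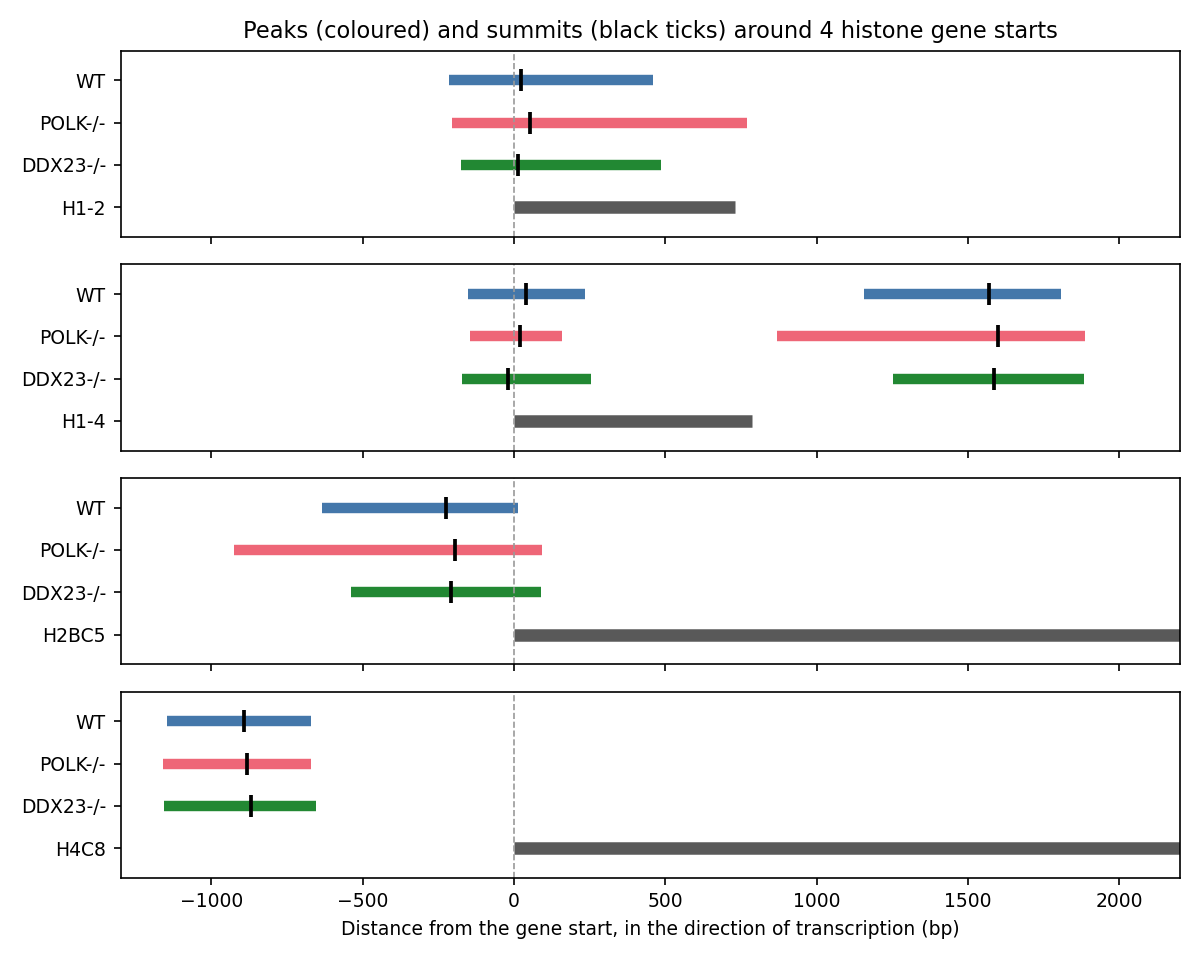
Peaks of the 3 lists (coloured bars) with their summits (black ticks) around the starts of H1-2, H1-4, H2BC5 and H4C8, in bases from the annotated start in the direction of transcription; grey bars are the genes, those of H2BC5 and H4C8 running past the right edge. The WT summit lies 24 bases after the start of H1-2, 223 before that of H2BC5 and 892 before that of H4C8.

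The peak near H4C8, an H4 gene, was of another kind. It lay 892, 882 and 869 bases before the start, with a fold of 18.5 in WT, 28.5 in POLK-/- and 19.9 in DDX23-/-. Under it stood an A box with a B box downstream, the internal promoter elements that RNA polymerase III uses in tRNA genes, at chr6:26286754-26286822 (plus strand), with the boxes in capitals. It is shown because it sets this peak apart from the other histone gene peaks.
H4C8 upstream peak: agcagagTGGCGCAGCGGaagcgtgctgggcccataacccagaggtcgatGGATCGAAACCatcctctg

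In RefSeq the nearest tRNA gene on this side of H4C8 is TRX-CAT1-2. No matched histone promoter held both boxes, against 0.0626% of all promoters, and this was the only peak near a histone gene that did, in each list. Without peaks of this type, 4 members had a peak in WT. The matching share over all protein-coding genes was not computed, so this count has no background beside it. An exact copy of at least 50 bases elsewhere in the genome covered 16.0%, 15.6% and 15.2% of this peak in the 3 lists, and no other peak near a member had one.

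H2AC15 had a peak beyond the end of the gene. Its fold was 14.0 in WT, 11.3 in POLK-/- and 13.1 in DDX23-/-, from 30, 60 and 61 fragments. The summit lay 711 bases past the gene end in WT and DDX23-/- and 690 bases past it in POLK-/-. The 200 bases around the WT summit, chr6:27804847-27805046 (GRCh37, minus strand, the strand of H2AC15), hold a stretch rich in CA near one end and a CCAAT near the other. They are shown because the peak lies in no annotated gene.
H2AC15 downstream peak: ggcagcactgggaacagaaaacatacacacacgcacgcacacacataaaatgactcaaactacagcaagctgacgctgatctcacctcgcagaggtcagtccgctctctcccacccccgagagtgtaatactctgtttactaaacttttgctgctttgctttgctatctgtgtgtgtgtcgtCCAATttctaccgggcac

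The remaining peaks were near the middle or the low end of their lists, with folds of 4.85 to 7.98. At H2BC18 the DDX23-/- summit lay 41 bases before the start, with a fold of 7.38 from 24 fragments, and the same peak brought H3C13 within the 1 kb limit. A DDX23-/- peak with a fold of 4.85 from 26 fragments lay 74 bases inside H2AC15 and 244 bases before its divergent partner H2BC15. Another, with a fold of 6.79 from 37 fragments, lay 133 bases before the annotated start of H2BC6. In this annotation the H2BC6 coding sequence lies far downstream of that start, nearer the other end of the gene. Inside the long annotated H2BC6, a POLK-/- peak (fold 6.02, 15 fragments) and a DDX23-/- peak (fold 6.03, 20 fragments) had summits 8488 and 8482 bases after the annotated start. The POLK-/- peak of H2AC6 (fold 7.98, 20 fragments) lay 1899 bases inside a gene annotated as 14972 bases long.

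Some members are annotated as much longer than their coding sequence. Of the 18 members longer than 1 kb in the annotation, 6 had a peak in some list, and of the 47 shorter ones 4 did. The part of length in these counts was not tested. Counted within 1 kb of the coding sequence, 5 members had a peak in WT, 5 in POLK-/- and 8 in DDX23-/-. The matching shares over all protein-coding genes were not computed, by length or around the coding sequence. These counts therefore cannot be set against a background.

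**Figure D3:**
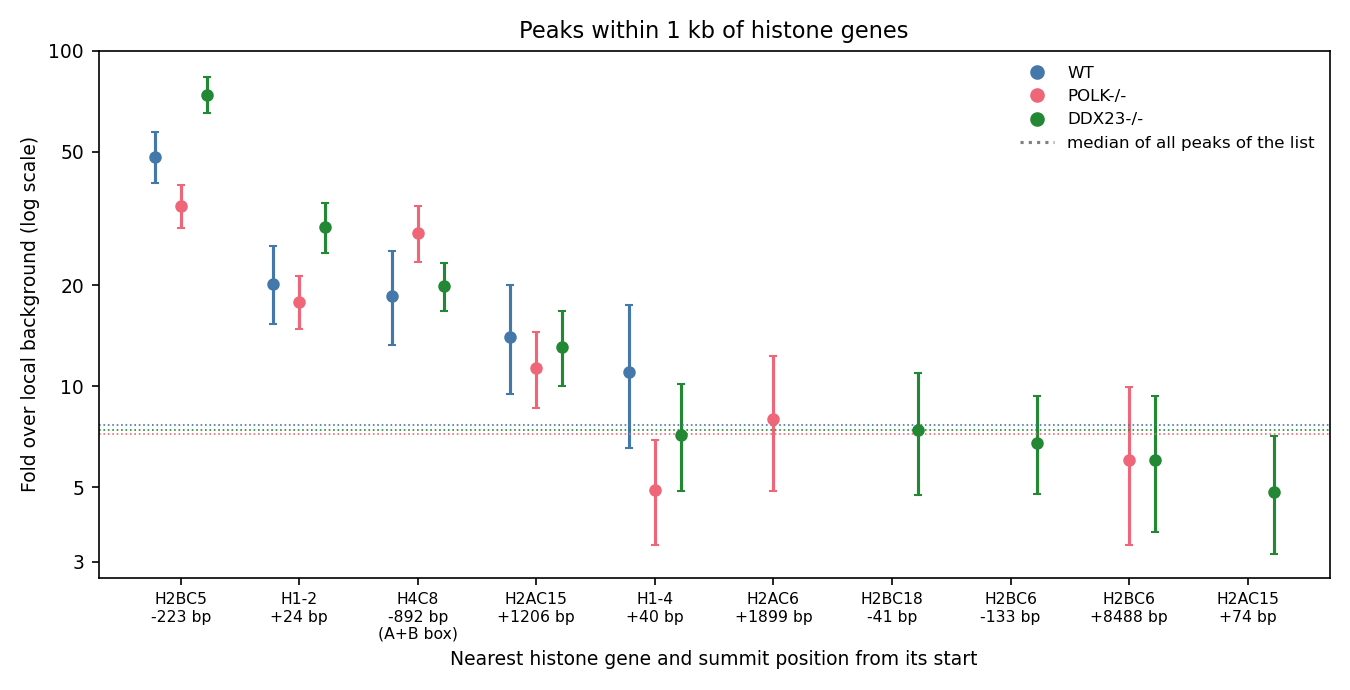
Deposited fold over local background (log scale) of the 21 peaks within 1 kb of histone genes, grouped into 10 places by nearest gene and summit position; colour gives the list, bars are the counting intervals of the fragments scaled to the fold, and dotted lines are the list medians. The 5 places on the left have a peak in all 3 lists, with 48.3, 34.5 and 73.9 upstream of H2BC5.

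Across the peaks near members, the median fold was 18.5 in WT (5 peaks, 11.1 to 48.3), 11.3 in POLK-/- (7 peaks, 4.91 to 34.5) and 7.38 in DDX23-/- (9 peaks, 4.85 to 73.9). Peaks near any protein-coding gene had medians of 7.34, 6.95 and 7.36. In WT all 5 histone gene peaks thus lay above that median, while the longer lists added weaker ones. Folds at places shared by all lists differed too. The lowest POLK-/- fold, 4.91, was at the H1-4 start, where WT had 11.1, while the fold at H4C8 was higher in POLK-/- (28.5) than in WT (18.5). The falling order of the medians was not seen among the 1468 strongest peaks of each list. There the medians were 18.5, 17.9 and 24.8, over 5, 5 and 4 peaks. That cut takes weaker peaks out of the longer lists, so the part of list length in the order was not tested.

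Between lists, the size of a peak was compared as fragments over background, with a conditional binomial interval on the fragments. The backgrounds were taken as fixed values, so these intervals leave out their error and may be too narrow. The comparisons of both knockouts share the WT list. With the local background at each peak, the POLK-/- to WT ratio was 0.615 (0.490 to 0.773) upstream of H2BC5, 0.235 (0.128 to 0.445) at the H1-4 start, 0.717 (0.518 to 1.00) at H1-2, 0.595 (0.378 to 0.956) downstream of H2AC15 and 1.30 (0.901 to 1.92) at H4C8. Over all 1129 peaks that WT shared with POLK-/-, the median was 0.962 (quartiles 0.608 and 1.43). With the genome-wide background of each list, the same ratios were 0.632 (0.503 to 0.794), 0.815 (0.444 to 1.54), 0.982 (0.710 to 1.37), 0.917 (0.582 to 1.47) and 1.27 (0.879 to 1.88), beside a median of 1.11. The peak upstream of H2BC5 was thus the one of the 5 whose interval lay below 1 on both scales. The lower ratios at H1-4 and H2AC15 were seen on the local scale alone, and the local background at the H1-4 start was 0.719 fragments in WT and 5.43 in POLK-/-.

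In DDX23-/- the interval lay above 1 on one scale and below 1 on the other at 2 places. On the local scale the ratio to WT was 1.76 (1.42 to 2.19) upstream of H2BC5 and 1.44 (1.05 to 2.01) at H1-2. With the genome-wide background it was 0.555 (0.449 to 0.689) and 0.695 (0.505 to 0.968). No direction is therefore given for them. At the H1-4 start the ratio was 0.408 (0.221 to 0.775) on the local scale and 0.508 (0.275 to 0.964) on the other, so the interval lay below 1 on both, from 18 and 31 fragments. H2AC15 gave 0.754 (0.480 to 1.21) and 0.60 (0.381 to 0.962), and H4C8 gave 0.745 (0.522 to 1.08) and 1.10 (0.770 to 1.60), on either side of 1 with intervals that held it. Over the 1359 peaks shared with DDX23-/-, the median was 1.25 on both scales, with local quartiles of 0.837 and 1.97. With 1 list per genotype, genotype and library cannot be told apart in any of these ratios.

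Many peaks lay in the chromosome 6 cluster without lying at its histone genes. From the lower end of H2AC1 to the last member, 2.14 Mb, there were 76 peaks in WT, 92 in POLK-/- and 100 in DDX23-/-, of which 5, 7 and 8 were within 1 kb of a member. Both an A box and a B box were present in 65 (85.5%), 73 (79.3%) and 77 (77.0%) of them, while over the whole lists 17.4%, 11.2% and 5.05% of peaks held both boxes. Within the span, peaks with both boxes had a median fold of 25.5, 30.0 and 40.2, and the others 14.0, 9.54 and 7.33. The median distance from a peak in the span to the nearest member was 145, 141 and 147 kb. Of the 20 other protein-coding genes in the span, 2 (10.0%, 1.23 to 31.7), 3 (15.0%, 3.21 to 37.9) and 5 (25%, 8.66 to 49.1) had a peak in WT, POLK-/- and DDX23-/-, and each interval held the share over all protein-coding genes.

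**Figure D4:**
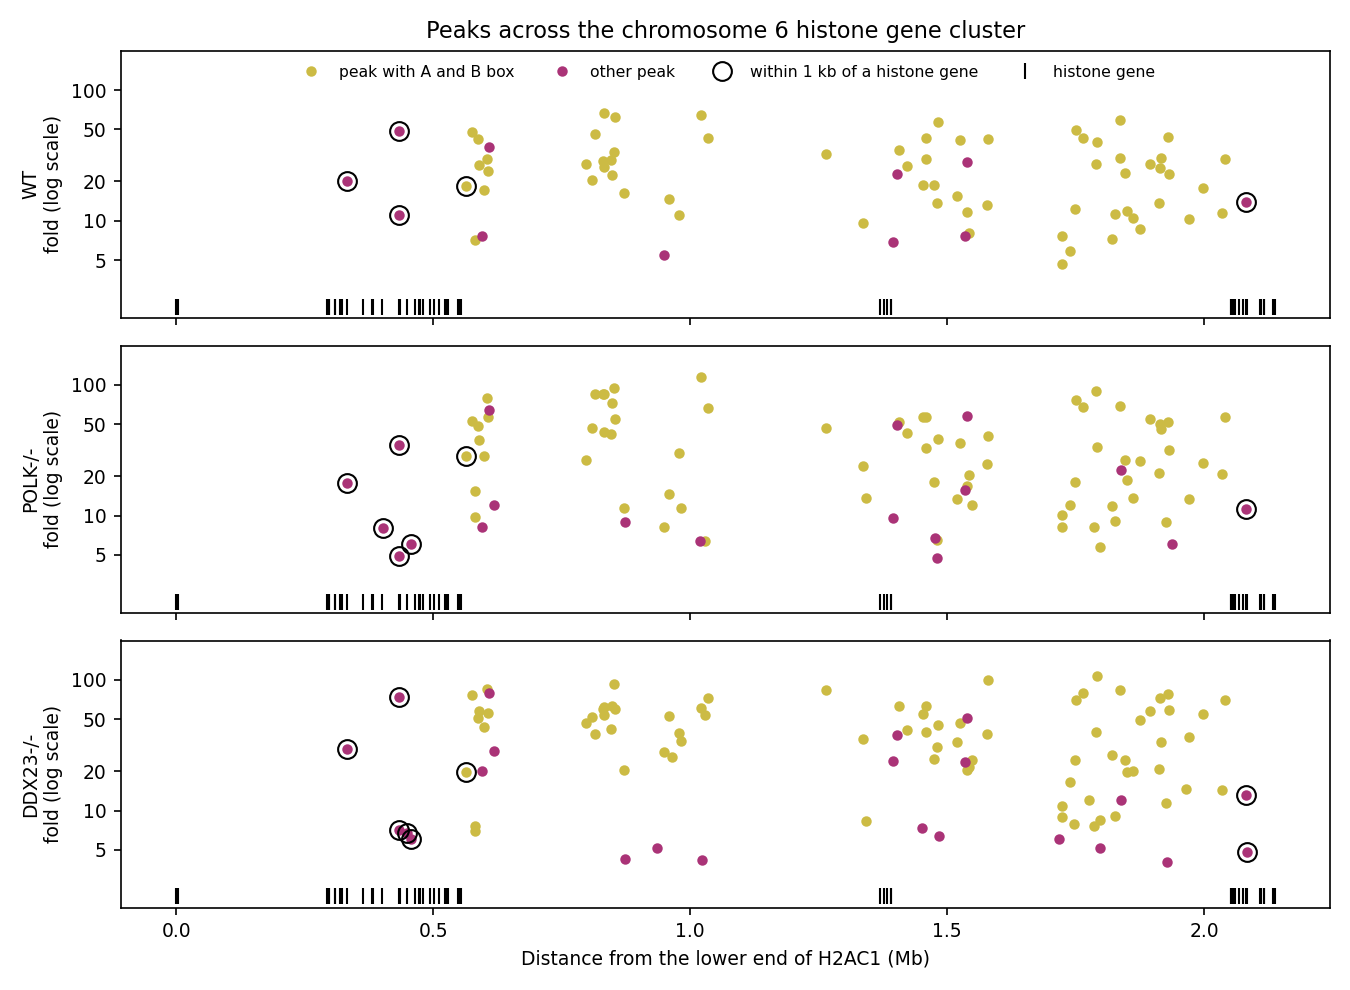
Fold (log scale) of every peak in the chromosome 6 cluster against its distance in Mb from the lower end of H2AC1, 1 panel per list; colour separates peaks with and without A and B boxes, circles mark peaks within 1 kb of a histone gene, and ticks mark the histone genes. Of the 76 WT peaks, 65 hold both boxes and 5 are circled.

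Most chromosome 6 histone genes without a peak still had one in the wider neighbourhood. Over all chromosomes, the members without a peak were a median of 31.4, 25.9 and 25.4 kb from the nearest one in WT, POLK-/- and DDX23-/-. Within 50 kb of the start, 72.3% of members had a peak in WT (59.8 to 82.7), against 14.6% of all protein-coding genes. In POLK-/- it was 80.0% against 23.4%, and in DDX23-/- 93.8% against 47.6%. Within 1 kb, by contrast, the members were near or below all genes in each list. Neighbouring members share the same peaks, so they are not independent, and the binomial intervals are too narrow at these distances. The chromosome 1 members were farther off in WT, from 69.9 kb at H2BC18 to 349 kb at H2BC26, with a median of 126 kb. The closest was 40.1 kb away in POLK-/-, and 20.1 kb among those without a peak in DDX23-/-. H2BC12L was 672 kb from a WT peak.

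**Figure D5:**
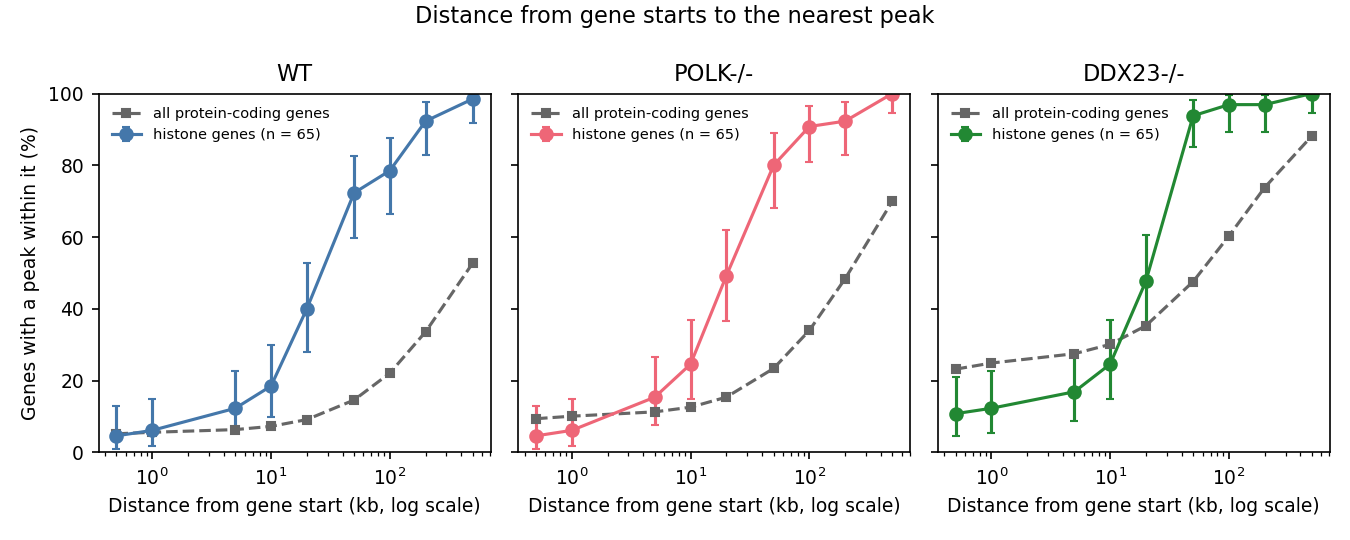
Percent of genes with a peak within a given distance of the gene start (kb, log scale), 1 panel per list; coloured points are the 65 histone genes with exact binomial 95% intervals and grey squares all protein-coding genes. In WT the histone curve stands at 6.15% at 1 kb and 72.3% at 50 kb, and the curve of all genes at 5.61% and 14.6%.

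Many H2A and H2B genes are transcribed away from each other from a shared short promoter. In all, 23 members had the start of a divergent member within 1 kb. Counting each gene once, with its nearest partner, there were 11 pairs holding 22 members. All of these pairs joined an H2A to an H2B gene except H3C7 with H2BC9, whose starts were 979 bases apart. The start of H3C12 lay 319 bases from that of H2BC17, which was paired with the nearer H2AC17 (240 bases). A peak reached the stretch between the starts in 0 pairs in WT and POLK-/- and in 1 pair, H2AC15 and H2BC15, in DDX23-/-, and no summit lay between the starts of any pair. H1-6, H2AC1 and H2BC1, which are known from the testis, had no peak in any list, nor did H1-1. H2AC1 and H2BC1 were 329 kb from the nearest WT peak.

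Nearly identical histone genes could lose reads in alignment. Within 500 bases of the start, 57 members had no base in an exact copy of 50 bases or more, whereas H4C14, H3C14, H2AC19, H3C15 and H4C15 were covered at 100%. Absence of a peak at these 5 cannot be told apart from reads that could not be placed. All 5 lie on chromosome 1. They were kept in the shares given above for chromosome 1, for H2A, H3 and H4, and for all members. Those shares and their upper limits thus count genes at which a peak may not have been callable. H2BC18 (15.0%) and H3C13 (21.7%) were covered in part, and so was H2BC6 (14.2%).

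A list of factors of histone gene expression gave a different count. Whether each listed gene acts on histone genes was not examined here. Of 34 factors of histone gene transcription and 3′ end processing, 4 had a peak in WT (11.8%, 3.30 to 27.5), 6 in POLK-/- (17.6%, 6.76 to 34.5) and 20 in DDX23-/- (58.8%, 40.7 to 75.4). The backgrounds were again 7.2%, 12.5% and 30.1%, so the DDX23-/- background lay below the interval, on the other side from the histone genes. This contrast was not tested, and the share of these factors among the 1468 strongest peaks of each list was not computed. In WT the 4 were NFYC, a subunit of the CCAAT-binding factor (fold 4.26), WDR33 (4.52) and SYMPK (7.65), both of the 3′ end processing machinery, and NCBP1 of the cap-binding complex (5.47). In DDX23-/- they included NPAT (5.24, 460 bases before its start), CASP8AP2 (3.80), HINFP, an activator of H4 genes (4.29), and LSM10 of the U7 particle (4.63). These 4 folds lay below the list median of 7.42, as did those of others such as POU2F1 (5.53) and CDK2 (4.48). The highest folds among the 20 were at NFYC (17.05), SRRT (15.26) and WDR33 (15.05).

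Of 27 annotated histone genes not coupled to replication, 1 had a peak in WT (3.70%, 0.0937 to 19.0), 4 in POLK-/- (14.8%, 4.19 to 33.7) and 5 in DDX23-/- (18.5%, 6.30 to 38.1), and the shares over all genes, 7.2%, 12.5% and 30.1%, lay within these intervals. H3-3B, which encodes the replacement histone H3.3, had a fold of 8.20 in POLK-/- and 8.78 in DDX23-/-. H1-10 had a fold of 6.71 in POLK-/-, and H2AZ1 (5.35) and H2AZ2 (4.04) had a peak in DDX23-/-. CENPA, the centromere histone, had a fold of 10.6 in POLK-/- and 8.17 in DDX23-/-, 21747 and 21732 bases past its start.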

How the data were processed

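ChIP-Seq peak lists of WT, POLK-/- and DDX23-/- HEK293T cells were analysed, 1 per genotype. The submitters' processing notes name Bowtie2, MACS2, bedtools, deepTools and the build hg19. The study's methods give duplicate removal by Picard for the ChIP-Seq of tagged cells. The threshold, control and any pooling for these lists are not given in the sources used here. Per the file headers and values, each deposited list holds a fold, which is a ratio over local background with 1 added to both terms, the −log10 of the p-value and of the q-value, and a score. No read counts or depths were analysed here.

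Peaks were assigned to a gene when they came within 1 kb of it. Fragments at the summit and the local background were solved from the deposited fold and −log10 p-value with the Poisson model of MACS2, allowing a relative misfit of 0.0005. This gave whole numbers for 1468 of 1468, 2451 of 2451 and 5943 of 5945 peaks in WT, POLK-/- and DDX23-/-. The genome-wide background was the lowest level found at 2% or more of a list's peaks. A and B boxes were searched as 24 to 110 bases apart. Python 3.11.15, pandas 2.3.3, SciPy 1.17.1, pysam 0.24.0 and blastn 2.17.0 were used, and the fragment recovery was tested on simulated data. Shares have Clopper-Pearson intervals. There were no replicate lists, so no test between genotypes was made.

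Named members were those with the highest WT fold, the highest of each histone type in each list, H1-1 and the genes known from the testis. Also named were members outside chromosomes 6 and 1, those with the largest or smallest ratio to WT and those with a peak in 1 list. Members, lists and alternatives were chosen with earlier results of these data known. The alternatives on the coding sequence, genes under older HIST names and the genome-wide background, and the element AAACACA were added after the data were seen, as were the promoters of H1-2 and H1-3. Promoters of H2AC15, H3C13 and H4C8 were planned but are not shown, because no peak of all lists lay in them. The controls and the tagged-cell libraries were not analysed here. Values of 1 further gene are not reported here.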

Additional observations from a re-analysis of the deposited data

How the results depend on the processing

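Over 44 results, 359 alternative values were computed under 12 settings. Of these, 335 stayed within 1.5 times the count or within the interval of the value. Some of them could not move. The equal number of 1468 peaks left the WT list whole, and no member outside chromosomes 6 and 1 had a peak. The medians of the 5 WT peaks were judged against the full range of those peaks. The 335 therefore overstates how many alternatives were a check. Requiring a peak to overlap the gene lowered the members with a peak in WT from 5 to 3, the distinct peaks in WT from 5 to 3 and the members with a peak in all 3 lists from 5 to 3. Widening to 5 kb raised these members to 8 in WT, 11 in POLK-/- and 8 in all 3 lists. The matching shares over all protein-coding genes were not computed for the overlap or for 5 kb. Counting within 1 kb of the gene start gave 4 members and 4 distinct peaks in POLK-/-. With an equal number of 1468 peaks per list, DDX23-/- kept 5 members and 4 distinct peaks, since fewer peaks entered. With the genome-wide in place of the local background, the DDX23-/- to WT ratio reversed from 1.44 to 0.695 at H1-2 and from 1.76 to 0.555 upstream of H2BC5, where the genome-wide background was 0.573 fragments in WT and 1.94 in DDX23-/-. Adding HIST2H2AA3 and HIST1H4B, histone genes still under older names, added no peak in any list. For single genes, 25 alternatives gave no value because no peak was left. No paired analysis was possible because each genotype had 1 list, although the labels number 2 samples of each. Leaving out a replicate was not possible for the same reason. The depth limits the absent peaks, most in WT, where a peak needed 10.5 times the background.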
